A study of Equus caballus with 4 samples.

Results

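The genes described here are 10 genes of ADP-ribosylation and of the interferon response in equine satellite cells (ESC), the stem cells of skeletal muscle. The interferon-linked genes are *parp8*, *parp9*, *parp10*, *parp12*, *parp14*, *dtx3l*, *samd9* and *samd9l*, and they were set beside *parp1* and *parp2*. The members were chosen by name, as probes whose gene name in the scanner files equals one of these symbols. The rule found 8 of the 10 genes, with 16 probes, among 15085 gene symbols and 43603 different probes on the array. No probe carries *parp8* or *parp10* as its gene name. For each of them 1 probe was found through the description column of the same files, after the values of the other members had been seen, and these probes are given apart from the counts of members. All 16 probes passed the filter on dim probes, the *dtx3l* probe through the HMB channel only.

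Cells of both groups came from horse muscle and were studied after 3 days of differentiation. One group, named HMB-treated here, received 50 µM β-hydroxy-β-methylbutyrate (HMB), a metabolite of leucine, for 24 h, with 3 mM H2O2 during the last 1 h. The control received the same H2O2 without HMB, so both groups carried the oxidative exposure, and cells without H2O2 were not analysed here. Each of 4 arrays held HMB-treated RNA labeled with Cy5 and control RNA labeled with Cy3, and each array counts as 1 replicate (n = 4). The labels call the arrays biological replicates, but in them the control carries replicate number 1 on all arrays, and the methods carried 1 selected culture forward. The arrays hence need not stand for 4 horses or 4 control cultures, and the p-values measure only the spread between these arrays. The dyes were not swapped, therefore a dye effect of a probe and the effect of HMB cannot be told apart. All arrays lay on 1 slide. A value is the log2 ratio of Cy5 over Cy3, so that a positive value means a higher level in the HMB-treated group, and FC is the same ratio on the linear scale. In bulk RNA, fewer cells of a type and less RNA per cell cannot be told apart.

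PARP enzymes move ADP-ribose from NAD to proteins and nucleic acids. PARP1 and PARP2 bind DNA breaks in the nucleus and build chains of ADP-ribose that recruit repair proteins. PARP9, PARP10, PARP12 and PARP14 attach single units of ADP-ribose or, as PARP9 does, work with a partner, and their genes belong to those that interferon induces in many cell types. DTX3L is a ubiquitin ligase that pairs with PARP9. SAMD9 and SAMD9L are neighboring paralogs that restrict the replication of some viruses. PARP8 is a less studied member of the PARP family, and its place among the interferon-linked genes here is a grouping by name that was not tested.

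The probes on which the values rest are 60 bases long and are written 5′ to 3′ as in the deposited files, with positions on the EquCab1 build given there. The probes of *samd9* and *samd9l* are shown because both genes are paralogs that one probe could read together. Capitals mark the bases that differ between the paired probes.
samd9, chr4:36279859-36279918, minus strand: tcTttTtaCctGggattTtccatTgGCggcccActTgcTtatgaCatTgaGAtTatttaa
samd9l, chr4:36318708-36318767, minus strand: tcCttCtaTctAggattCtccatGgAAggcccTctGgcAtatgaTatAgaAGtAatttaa
samd9, chr4:36279919-36279978, minus strand: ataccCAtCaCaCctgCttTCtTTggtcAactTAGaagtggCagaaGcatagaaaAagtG
samd9l, chr4:36318768-36318827, minus strand: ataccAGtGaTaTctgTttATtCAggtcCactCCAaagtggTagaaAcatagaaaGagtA
Over the 120 bases of both pairs, 86 were identical (71.7%) and 34 differed, and the longest identical run was 8 bases. The pairs shared 44 and 42 of 60 bases.

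A probe of *parp14* and a probe of the neighboring gene *parp15* also lie over related sequence and are shown for the same reason. Capitals mark the bases that differ where both overlap, and bases outside the overlap are in lower case.
parp14, chr19:32853909-32853968, minus strand: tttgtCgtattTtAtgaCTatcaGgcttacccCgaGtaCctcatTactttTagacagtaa
parp15, chr19:32920077-32920136, minus strand: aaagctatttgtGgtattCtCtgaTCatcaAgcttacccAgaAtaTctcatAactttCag
They shared 42 of 53 overlapping bases (79.2%), with a longest identical run of 8 bases. No probe of another gene on the array shared a run of 20 bases with a probe of a member.

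The remaining probes shown are the brightest ones of *dtx3l*, *parp9*, *parp14* and *parp2*, which carry the comparison between the interferon-linked genes and the repair enzymes. Capitals mark a stop codon at the end of a probe, in a frame with no earlier stop. In the *dtx3l* probe the other forward frames hold stop codons, which places it at the end of the coding sequence. In the *parp2* probe 1 other forward frame holds no stop codon, so its capitals do not show where the coding sequence ends.
dtx3l, chr19:32984651-32984710, minus strand: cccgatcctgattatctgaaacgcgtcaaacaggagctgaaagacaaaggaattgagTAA
parp9, chr19:33030960-33031019, plus strand: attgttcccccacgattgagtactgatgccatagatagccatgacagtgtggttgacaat
parp14, chr19:32853969-32854028, minus strand: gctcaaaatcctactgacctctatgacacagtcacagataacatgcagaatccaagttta
parp2, chr1:154438318-154438377, plus strand: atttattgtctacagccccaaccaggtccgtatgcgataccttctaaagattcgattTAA
The probes of *parp1*, *parp10* and *parp12* lie on sequence that the build had not placed on a chromosome, and the *parp8* probe lies at chr21:16562282-16562341. The brightest *parp1* probe covers 331 bases of that sequence, longer than the probe itself.

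All 6 interferon-linked genes found by name were higher in the HMB-treated group, while *parp1* and *parp2* did not pass the test. *Samd9l* had an FC of 39.3 and *parp12* an FC of 2.85 with the deposited ratios. A probe was called at an adjusted p of 0.05 or less, from limma's model over all 24670 tested probes with the Benjamini-Hochberg correction, together with an FC of 1.3 or more. By the brightest probe of each gene, 6 of 8 members were called higher and 0 lower, beside 10.5% of the 8801 tested gene symbols called higher, 17.1% called lower and 27.6% called in either direction. By probes, 10 of 10 probes of the interferon-linked genes were called higher and 0 of 6 probes of *parp1* and *parp2* were called, beside 12.1% of all tested probes called higher and 28.6% called in either direction. These counts and the median below include *dtx3l*, which passed the filter on dim probes only through the HMB channel. With both channels required above background, 7 members were tested and 5 were called higher. The median log2 ratio of the 6 genes was 2.69, against −0.08 over all tested symbols. On single arrays it was 2.88, 2.70, 3.00 and 2.31 for replicates 1 to 4, and on every array the lowest of the 6 genes lay above both *parp1* and *parp2*.

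**Figure D1:**
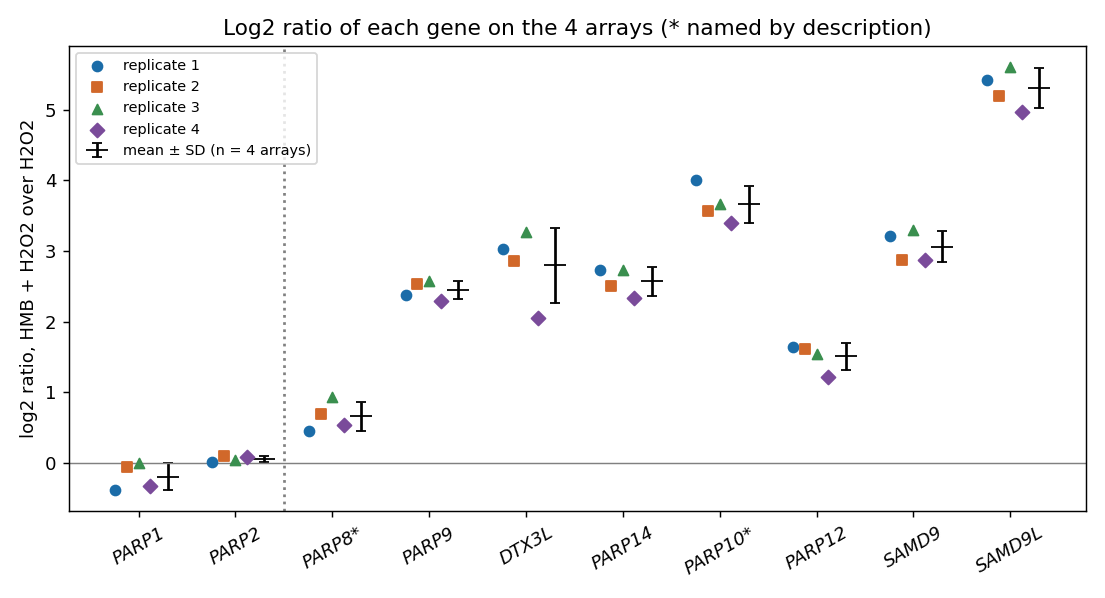
Log2 ratio of the brightest probe of each gene (vertical axis, HMB-treated over control) on each of 4 arrays, with the mean ± SD (n = 4) beside the points, and a dotted line between *parp1* and *parp2* and the interferon-linked genes. The points of *parp1* and *parp2* lie between −0.38 and 0.10, and those of the genes to the right of the line lie at 0.46 or above, highest for *samd9l* at 4.97 to 5.60.

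*Parp14* encodes a large PARP with macrodomains, which bind ADP-ribose. Its normalized signal was 117, 114, 149 and 131 in the control channel of replicates 1 to 4 and 778, 648, 988 and 656 in the HMB channel. The groups did not overlap, and replicate 3 was the brightest in both. For this and the other members, the share of all tested probes without such overlap is not given here. The log2 ratios were 2.73, 2.51, 2.73 and 2.33, a mean of 2.57 ± 0.20 (SD, n = 4; FC 5.95, limma adjusted p = 6.68e-06). The second probe, which abuts the first, gave 2.85 ± 0.44. With normexp background correction and loess the ratio of the first probe was 1.68 and still called.

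*Parp9* encodes the partner of DTX3L. The signal was 123, 97.3, 129 and 108 in the control channel and 638, 564, 770 and 531 in the HMB channel. No control value reached any HMB value. The log2 ratios of 2.38, 2.54, 2.58 and 2.29 had the smallest SD among the 6 members called higher (2.45 ± 0.13, FC 5.46, limma adjusted p = 3.92e-06). The other probe gave 2.73 ± 0.26, and normexp lowered the first to 1.57.

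For *dtx3l* the control signal was 26.1, 24.0, 29.1 and 34.8, not well above background on any array, and the HMB signal was 214, 175, 281 and 144, well above background on all 4. The control level is thus only a bound, and the FC of 6.99, a mean over the 4 arrays with the deposited processing, has no exact size. For a dim probe, a bound on the mean FC was formed by setting the mean signal of the bright channel against a floor. The floor was the higher of the dim probe's own signal and the lowest signal well above background on each array. For the bounds, intensities were quantile-normalized between arrays, which leaves the ratios as they are. The measured log2 ratios were 3.03, 2.86, 3.27 and 2.05 (2.80 ± 0.53, limma adjusted p = 0.000127). Their mean equals the bound, so for *dtx3l* the bound is no lower limit below the measured value, and replicate 4 lay under it. Replicate 4 was the lowest, and the SD was the largest among the members. The value depended on the background: it was 0.91 with normexp and 1.3 without background correction, so the FC of 6.99 holds for the deposited processing only.

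*Parp12* encodes a mono-ADP-ribosyltransferase with zinc fingers. Its signal was 410, 393, 502 and 389 in the control and 1280, 1210, 1470 and 907 in the HMB-treated cells. It was the brightest interferon-linked PARP probe in the control channel, though signals of different probes are no measure of relative transcript levels. The log2 ratios of 1.64, 1.62, 1.55 and 1.22 gave 1.51 ± 0.19 (FC 2.85, limma adjusted p = 6.41e-05). Scaling by the spike-in RNA lowered the median of all tested probes from −0.07 to −0.67, and the *parp12* ratio was then 0.93.

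The probe described as *parp10*, a mono-ADP-ribosyltransferase gene, had control signals of 16.4, 25.2, 25.5 and 13.7, not well above background on any array. The HMB signals were 264, 299, 323 and 145 and were well above background on all 4 arrays. With the deposited processing the gene was, as a mean over the 4 arrays, at least 11.2-fold higher in the HMB-treated group (measured log2 ratio 3.66 ± 0.26, limma adjusted p = 3.35e-06). This bound does not hold for other processing, since the log2 ratio was 1.31 with normexp and 1.77 without background correction.

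The probe described as *parp8* rose less, with log2 ratios of 0.46, 0.70, 0.94 and 0.54 (0.66 ± 0.21, FC 1.58, limma adjusted p = 0.00211). Its signal was between 78.9 and 93.5 in the control and between 113 and 179 in the HMB-treated cells, with no overlap. The call was lost with treat, limma's test for an FC above 1.3 (adjusted p = 0.0808), and with normexp (0.27), and the ratio was −0.01 after scaling to the spike-in RNA.

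*Samd9* had signals of 47.8, 57.5, 60.2 and 47.4 in the control and of 444, 422, 589 and 348 in the HMB-treated cells. The lowest HMB value exceeded the highest control value. The log2 ratios were 3.21, 2.87, 3.29 and 2.87 (3.06 ± 0.22, FC 8.36, limma adjusted p = 4.57e-06), and the second probe gave 3.1 ± 0.32. With normexp the first probe gave 1.65.

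*Samd9l* went from 243, 279, 292 and 311 in the control to 10400, 10200, 14200 and 9730 in the HMB-treated cells. No other member reached such signals, and replicate 3 was again the brightest in the HMB channel. The log2 ratios were 5.42, 5.19, 5.60 and 4.97 (5.30 ± 0.28, FC 39.3, limma adjusted p = 1.47e-06). Ordered by ratio, this probe was the 37th of the 24670 tested probes, and its second probe, at 5.12 ± 0.33, was the 45th. The paralogs, whose probes differ at the bases in capitals above, differed in ratio by 2.21, 2.32, 2.31 and 2.09 on the 4 arrays, with *samd9l* higher by 2.23 ± 0.11 on the log2 scale.

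**Figure D2:**
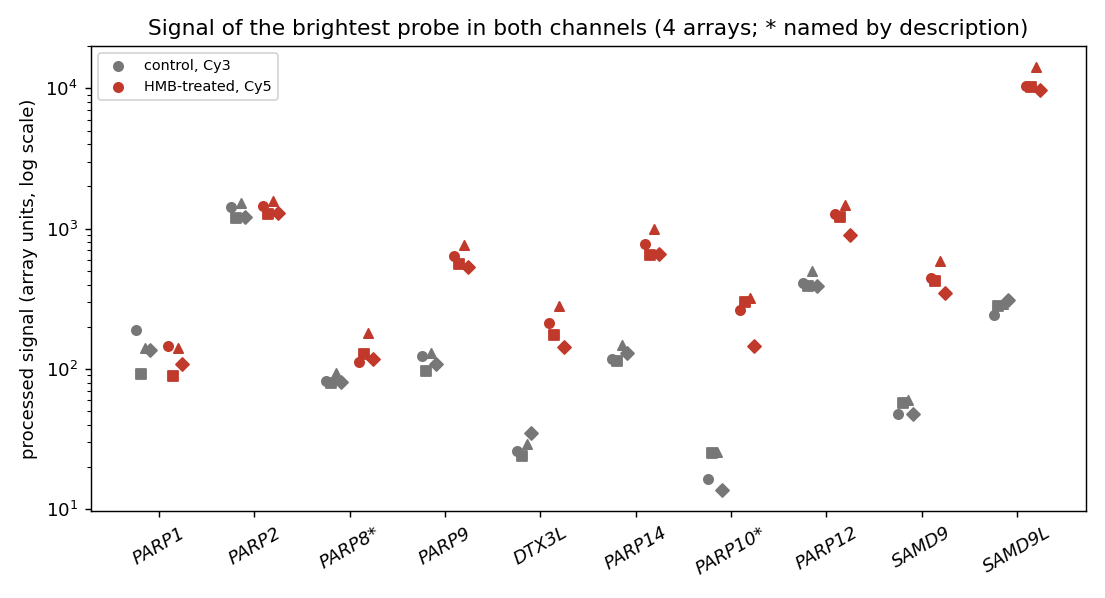
Normalized signal of the brightest probe of each gene (vertical axis, array units on a log scale) in the control channel (gray) and the HMB channel (red), with 1 symbol per array. Both channels lie over each other for *parp1* and *parp2*, whereas for the other genes every HMB value lies above every control value. The share of all tested probes without overlap is not given.

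*Parp1* encodes the most active nuclear PARP. Its signal was 189, 91.8, 141 and 137 in the control and 145, 88.7, 140 and 109 in the HMB-treated cells, and the channels overlapped. The log2 ratios were −0.38, −0.05, 0.00 and −0.33 (−0.19 ± 0.19, limma adjusted p = 0.117). The other 3 probes gave −0.25, −0.22 and 0.04, and as successive *parp1* probes share 40 bases they are not independent measurements.

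*Parp2* encodes the related repair enzyme. The control signal was 1430, 1190, 1530 and 1220 and the HMB signal 1460, 1280, 1580 and 1290. The log2 ratios of 0.02, 0.10, 0.04 and 0.08 (0.06 ± 0.04, limma adjusted p = 0.426) varied less than those of any other member, and the second probe gave 0.15 ± 0.15. Relative to the spike-in RNA, where most of the array moved down, both repair enzymes were called lower, *parp1* at −0.85 and *parp2* at −0.52, against a median of −0.67 for all tested probes.

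To set the groups of genes side by side within each array, the mean of the *parp1* and *parp2* ratios was taken from the ratio of each interferon-linked gene. This difference does not move with a shift of the whole array. It was 5.36 ± 0.27 for *samd9l*, 3.13 ± 0.25 for *samd9*, 2.64 ± 0.21 for *parp14*, 2.51 ± 0.07 for *parp9*, 1.57 ± 0.19 for *parp12* and 0.73 ± 0.13 for *parp8*, all on the log2 scale. For *parp10* and *dtx3l*, whose control signals were at background on all arrays, the measured 3.72 ± 0.31 and 2.87 ± 0.50 have no exact size, and they were 1.3 and 0.90 with normexp. The difference was positive on 4 of 4 arrays for each of the 8 genes. A two-sided exact sign-flip permutation test over 4 arrays cannot give less than p = 0.125, which was the value for each gene before and after Benjamini-Hochberg correction over the 8 comparisons, so this design cannot reach the 0.05 level.

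Among the members measured in both channels, *samd9l* stood first in the order of the deposited ratios, followed by *samd9*, *parp14*, *parp9*, *parp12* and *parp8*, with *parp2* and *parp1* last. *Parp10* and *dtx3l*, with only a bound for the control, were not ranked. *Parp14* and *parp9* did not differ beyond their spread, as *parp14* exceeded *parp9* by 0.13 ± 0.17 (on 3 of 4 arrays). *Samd9* exceeded *parp14* by 0.49 ± 0.09, and the step from *parp9* down to *parp12* was 0.94 ± 0.15, each on 4 of 4 arrays. With normexp *samd9* (1.65) and *parp14* (1.68) changed places. On replicate 4 the ratio was the lowest of the 4 arrays for *parp9*, *parp10*, *parp12*, *parp14*, *dtx3l* and *samd9l*.

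Several members lie together on the genome. On chromosome 19, *parp14*, *parp15*, *dtx3l* and *parp9* follow each other within 177.0 kb, and the probes of *dtx3l* (minus strand) and *parp9* (plus strand) point away from each other. In the human genome these genes start from a shared promoter that responds to interferon gamma. The current RefSeq horse annotation lists the genes in the same order, between *hspbap1* and *kpna1*. *Parp15*, another PARP with macrodomains, was called higher as well (2.76 ± 0.25, limma adjusted p = 9.93e-06). A transcript named only by an identifier, between *parp15* and *dtx3l*, was at 0.24 ± 0.24 and was not called. *Hspbap1*, 5.0 kb from the *parp14* probe, was at −0.20 ± 0.06 and was not called. *Kpna1*, 89.1 kb beyond *parp9*, was lower at −0.48 ± 0.09. Within 500 kb on each side, a window chosen after the values were seen, 16 of 21 transcripts were tested, 7 were called higher and 2 lower. Over all tested symbols, 10.5% were called higher and 17.1% lower, and over all tested probes 12.1% and 16.4%. Some transcripts in the window carry no gene symbol. The window was set around the members, and the counts include them. Besides the 4 PARP-locus genes, those higher were an expressed sequence tag 2958 bases from *parp14* (1.90 ± 0.23), *fam162a* (0.55 ± 0.12) and *csta* (1.73 ± 0.60). *Wdr5b* was the other lower gene (−1.08 ± 0.42), with an HMB signal above background on 1 of 4 arrays, and was not called with normexp (−0.25).

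On chromosome 4, *samd9* and *samd9l* lie 38.9 kb apart on the same strand. A probe without a gene name 950 bases from the *samd9* probe gave 3.46 ± 0.27 and was called higher (limma adjusted p = 4.62e-06). Of the 12 labels within 500 kb on each side, 8 were tested, and *samd9*, *samd9l* and this probe were the 3 called higher. This count includes the members and labels without a gene symbol. Among all tested symbols 10.5% were called higher and 17.1% lower, and among all tested probes 12.1% and 16.4%. *Cdk6* was lower at −0.62 ± 0.23, and *ccdc132* at −0.28 ± 0.12 was not called. *Hepacam2*, the next gene 66.4 kb beyond *samd9l*, did not pass the filter on dim probes.

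**Figure D3:**
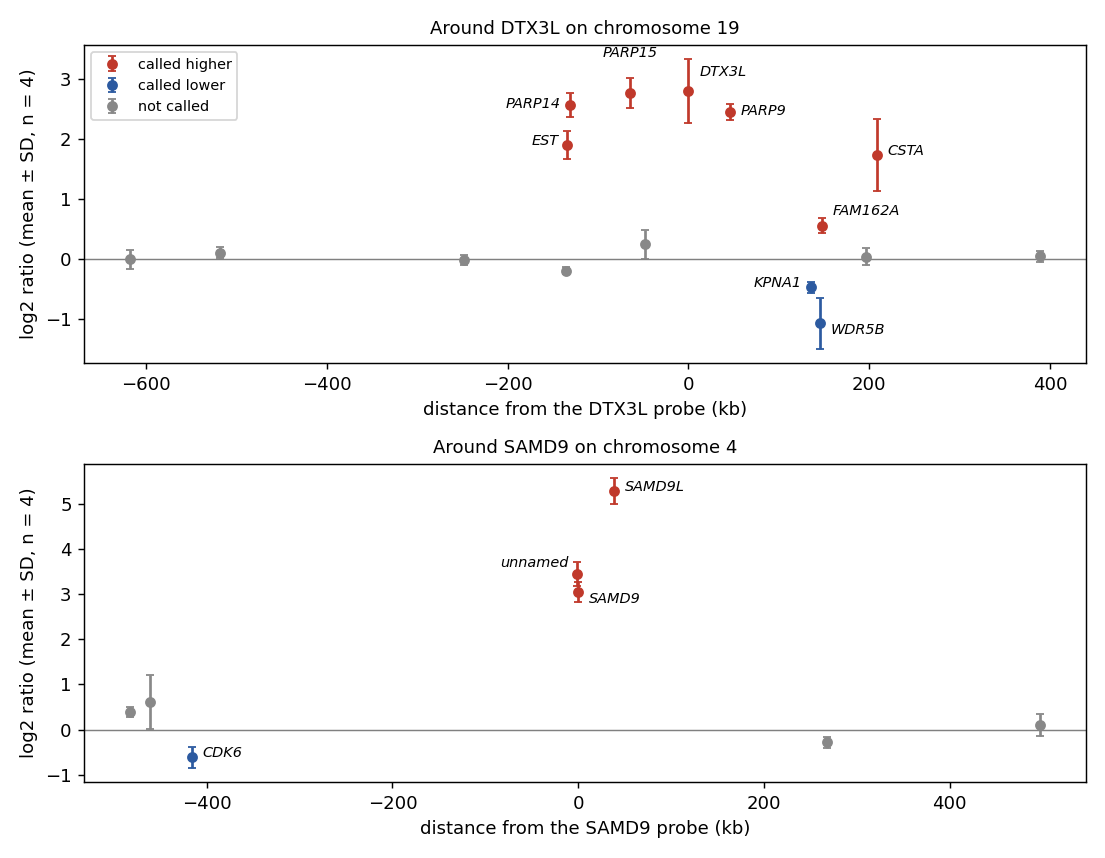
Mean log2 ratio ± SD (n = 4, vertical axis) of the tested transcripts around *dtx3l* (top) and *samd9* (bottom) against the distance between probes in kb (horizontal axis), with called transcripts named. At the top, *parp14*, *parp15*, *dtx3l* and *parp9* are high, with 1 transcript between them not called (0.24 ± 0.24), a tag beside *parp14* high as well and *csta* high further out, and those at the bottom belong to *samd9*, *samd9l* and the unnamed probe beside *samd9*.

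Other genes of ADP-ribosylation were taken from lists written from general knowledge. Of 10 further PARP family genes, 8 were tested, 3 were called higher and 1 lower, beside 10.5% and 17.1% of all tested symbols, with a median log2 ratio of 0.12 against −0.08 over all tested symbols. Beside *parp15*, these were *parp3*, a PARP of DNA repair (0.93 ± 0.19), and *tiparp*, a target of the aryl hydrocarbon receptor (0.39 ± 0.25). The FC of *tiparp* was 1.31, just above the threshold. Its call was lost under 8 of 17 other ways of processing, and its sign turned under 1 more. *Tnks2*, a tankyrase gene, was lower (−0.52 ± 0.27), a call lost under 5 of 17 other ways of processing, the methods' t-test and normexp (−0.26) among them. *Zc3hav1*, which encodes the antiviral PARP13, had no probe under this symbol. Among 5 tested genes that remove or read ADP-ribose, 0 were called, beside 27.6% of all tested symbols called in either direction. *Parg*, which encodes the main glycohydrolase of ADP-ribose chains, was at −0.15 ± 0.11. Of 9 tested repair partners of PARP1 and PARP2, 0 were higher and 1 was lower, beside 10.5% and 17.1% of all tested symbols. Counts this small do not set these lists apart from the whole array. The lower gene was *lig3*, a DNA ligase gene (−0.40 ± 0.18), with an HMB signal well above background on 1 of 4 arrays. Its call was lost under 6 of 16 other ways of processing, among them normexp (−0.07) and the fits without replicate 1 (−0.35) or replicate 4 (−0.36).

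NAD is the substrate of all PARPs. Of 8 tested genes of NAD supply and use, 2 were called higher and 2 lower, with a median of −0.30, beside 10.5% and 17.1% of all tested symbols. *Nampt*, the rate-limiting enzyme of NAD salvage, had log2 ratios of 1.37, 1.44, 1.24 and 1.20 (1.31 ± 0.11, FC 2.48, limma adjusted p = 4.14e-05). The control signal of *cd38*, which encodes an NAD-degrading enzyme, was not well above background on any array. As a mean over the 4 arrays, *cd38* was at least 3.11-fold higher (measured log2 ratio 2.89 ± 1.09). This bound holds for the deposited processing only, since the log2 ratio was 0.47 with normexp and 0.73 without background correction. *Qprt*, of NAD synthesis from tryptophan, was lower (−1.07 ± 0.11, limma adjusted p = 9.74e-05), and *sirt1*, an NAD-dependent deacetylase gene, was lower as well (−0.51 ± 0.22), a call lost under 4 of 17 other ways of processing, normexp (−0.13) among them.

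Genes that carry the interferon signal rose with the members. Of 15 listed genes, 10 were tested, 8 were called higher and 0 lower, beside 10.5% and 17.1% of all tested symbols, with a median of 1.76. *Usp18*, which removes the ubiquitin-like ISG15 and dampens interferon signaling, rose the most (4.03 ± 0.34, FC 16.4). *Irf7*, a transcription factor that amplifies type I interferon, was at 3.45 ± 0.23, and *irf9*, the DNA-binding part of the factor ISGF3, at 1.78 ± 0.19. *Ifnb1*, which encodes interferon beta, was at 3.42 ± 1.11, with a control signal above background on 1 of 4 arrays, and its log2 ratio was 0.63 with normexp and 1 without background correction.

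**Figure D4:**
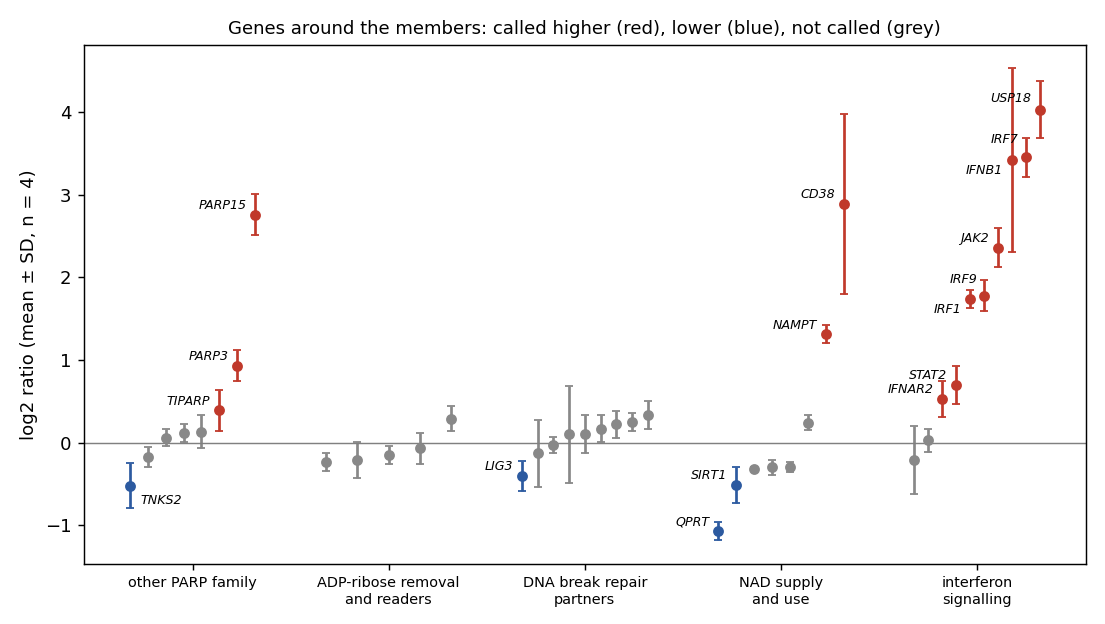
Mean log2 ratio ± SD (n = 4, vertical axis) of the tested genes of 5 lists (horizontal axis), with genes called higher in red, called lower in blue and not called in gray. The genes of ADP-ribose removal and of break repair lie near 0, while 8 of 10 interferon signaling genes are called higher.

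The genes whose ratios over the 4 arrays were nearest to those of *parp14*, by Euclidean distance among 8793 symbols, were *usp25* (distance 0.25), *oas3* (0.26), *batf2* (0.36) and 2 provisional loci (0.40 and 0.43). Nearest to *samd9* were *saa* (0.27), *isg15* (0.33), *znfx1* (0.41), *xaf1* (0.44) and *ccl13* (0.44). For *parp1* they were *morc2* (0.08), *rrn3* (0.09), *sh3kbp1* (0.11), *trip12* (0.11) and *nlk* (0.12), whose mean ratios lay between −0.22 and −0.15. The distance is a description over 4 arrays that share a slide and both dyes.

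Some markers of cell types also differed between the groups, in both directions. Of 8 tested muscle markers 6 were lower with HMB (median −1.02; 17.1% of all tested symbols were lower), and their summed signal was 178000 to 202000 in the control and 71400 to 112000 in the HMB channel. All 8, among them *des* and *acta1*, were well above background in both channels. Of 5 tested fibroblast markers 4 were higher (median 0.76; 10.5% of all tested symbols were higher), with sums of 194000 to 223000 and 223000 to 340000. Among the leukocyte markers, *cd68* was higher (0.88 ± 0.20) and *cd14*, at 0.20 ± 0.19, was not called. *Cd3e*, *itgam*, *aif1*, *csf1r* and *laptm5* did not pass the filter on dim probes, nor did any listed endothelial or adipocyte marker on the array. The part of these markers in the ratios of the members was not tested. Across the whole array, 55.2% to 61.8% of spots were well above background per channel and array, no pair of arrays correlated below r = 0.837 across probes (which are not independent replicates), and 0 spots were saturated.

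The background correction and the scaling changed the size of the ratios. Among the ways of processing tried, the 6 interferon-linked genes found by name were called higher in 101 of 101 values. *Samd9l* ranged from 4.65 to 5.41, *samd9* from 1.65 to 3.13, *parp14* from 1.68 to 2.71, *parp9* from 1.57 to 2.59, *dtx3l* from 0.91 to 3.06 and *parp12* from 0.93 to 1.60.

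**Figure D5:**
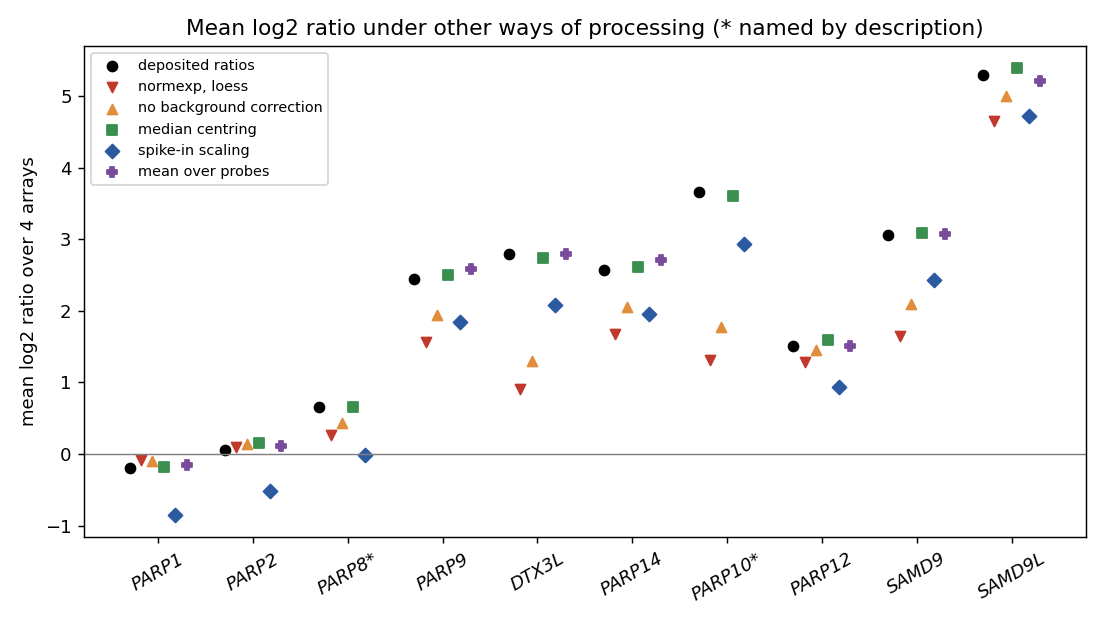
Mean log2 ratio over 4 arrays (vertical axis) of each gene with the deposited ratios and with 5 other ways of processing. The dim probes of *dtx3l* and *parp10* move the most with the background correction, and scaling to the spike-in RNA lowers every gene, which takes *parp2* below 0 and *parp8* to −0.01.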

How the data were processed

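RNA of HMB-treated (Cy5) and control (Cy3) ESC was compared on 4 two-color Agilent horse arrays. The scanner files deposited by the authors give, as intensity, each spot's mean, background and normalized signal per channel. The log10 ratios deposited by the authors are Cy5 over Cy3 after background subtraction and linear and lowess normalization within arrays by Feature Extraction, version 10.10.1.1 per the file headers, so that a shift common to most transcripts is lost. A signal near background was replaced by a surrogate, so ratios of dim probes are compressed or only bounds. The authors' table of normalized log10 ratios was used as an alternative. A change of base turned the deposited values into log2 ratios.

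Controls were left out, as were 13 to 35 spots per array marked non-uniform or outlying, and spots of 1 probe were averaged. Probes with at least 1 channel well above background on each of the 4 arrays, and with 3 or more ratios, were tested. Ratios were tested against 0 with limma 3.58.1 in R 4.3.3 (intercept, empirical Bayes, Benjamini-Hochberg over 24670 probes), with thresholds of 0.05 for the adjusted p and 1.3 for the FC. A gene is given by its brightest tested probe. The script was tested on simulated data. The number of arrays limits the precision. The members and lists were chosen with earlier results of these data known. The genes named are all members and, of each list, the called genes with the largest ratio, at most 3 in each direction, with a few genes named whatever their values. Some listed genes are not reported here. Alternatives were the methods' t-test, treat, normexp (offset 50) or no background correction with loess, median centering, spike-in scaling, scale normalization, GC correction, other filters, the mean over probes, the authors' table and each replicate left out. RefSeq names and gene order came from the table of the TB-T2T assembly, in which 9 of the 10 symbols were found. Promoters and proteins of the members were not analysed here.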

Additional observations from a re-analysis of the deposited data

How the results depend on the processing

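Of 636 values of named genes under the alternatives, 33 lost the call, 10 gained one, and 5 changed sign in a gene called before or after. A further 11 values, in 3 genes (*dirc2*, *sec22a* and *rbm48*), changed sign and were called neither before nor after. The largest was that of *rbm48*, from 0.38 to −0.29 after spike-in scaling. The 5 changed sign after spike-in scaling: *parp2* to −0.52, *parp8* to −0.01, *tiparp* to −0.21, *ccdc58* to −0.50 and *pdia5* to −0.43. The same scaling ended the calls of *fam162a* (0.03) and *parp3* (0.30). With it 2 member genes, *parp1* and *parp2*, were called lower. It also gave 20263 called probes (984 higher, 19279 lower; 4.86% higher), against 7046 (2996 higher, 4050 lower; 42.5% higher) with the deposited ratios. Treat called 2822 probes (1542 higher, 1280 lower; 54.6% higher), normexp 3539 (1945 higher, 1594 lower; 55.0% higher) and loess without background correction 4440 (2669 higher, 1771 lower; 60.1% higher). Median centering gave 51.4% higher. Leaving out single replicates gave 6637 to 7151 called probes, 2733 to 3055 of them higher and 3900 to 4096 lower, and the count of interferon-linked genes called higher stayed at 6. Differences from *parp1* and *parp2* stayed positive for all 8 genes under every alternative that gave a value, from 0.27 (*parp8*, normexp) to 5.45 (*samd9l*). With both channels required above background, *dtx3l* and *parp10* gave no value. The cause of these shifts was not tested. No paired analysis was possible because there is 1 group of ratios, in which each array already pairs both RNAs. Signal over background limits *dtx3l*, *parp10* and *cd38*, whose control levels are only bounds.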
